A study of Homo sapiens with 13 samples.

Results

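CCRF-CEM is a cell line from a human acute T lymphoblastic leukemia, and FK866 inhibits NAMPT, the enzyme that recycles nicotinamide into NAD. Parental cells (CEM PA) were compared with cells that had been grown in rising FK866 until they tolerated 100 nM (CEM RES). Both were kept for 48 h with 5 nM FK866 or with DMSO alone (mock), and total RNA was hybridised to 13 1-colour Agilent expression arrays. There were 3 arrays of CEM PA mock, 2 of CEM PA with FK866, 4 of CEM RES mock and 4 of CEM RES with FK866. The labels call the replicates biological. All CEM RES cells come from 1 selected population, so the replicates repeat that population and not the selection. Described here are the probes that the scanner software called well above background on every array of 1 line and on no array of the other. A probe counted on an array where most of its spots carried that call, and probes for histone and small nucleolar or Cajal body RNA genes were left out by name.

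By this rule 29 of 34127 probes were well above background only in CEM RES, on all 8 of its arrays and 0 of 5 CEM PA arrays, which is 0.085% of the probes. The reverse held for 55 probes of 53 genes, well above background on all 5 CEM PA arrays and 0 of 8 CEM RES arrays, which is 0.161%. In comparison, 18914 probes passed on all 13 arrays and 5795 on none. The members were chosen by the well-above-background calls of the arrays themselves. The rule is thus a reading of the difference between the lines, so every value below that sets CEM RES against CEM PA is a description and carries no test. All CEM RES arrays were scanned in 1 session on slides 5 and 6, and the CEM PA arrays in 2 other sessions on slides 1 to 4. Scan session and line therefore cannot be told apart.

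A probe of this array is a stretch of DNA that captures the labelled copy of 1 part of 1 transcript. A low signal of a probe therefore speaks for that part of the transcript, and a gene can be read in full only where further probes cover other exons, 3′ ends or transcript forms. Human genes often have several promoters, splice forms and 3′ ends, and antisense and non-coding transcripts have probes of their own.

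"Well above background" is a stricter call than detection. For the median probe of the CEM RES set, 3 of the 5 CEM PA arrays still gave a signal that was positive and significant over the local background, and for the median probe of the CEM PA set 5 of the 8 CEM RES arrays did. In the CEM RES set 1 probe gave such a signal on no CEM PA array, that of KCNIP4, a partner protein of Kv4 potassium channels. In the CEM PA set 3 probes gave it on no CEM RES array, those of PXDN, the peroxidase that cross-links basement membrane collagen, PRKCA, a protein kinase C, and C1orf21. In each set 6 probes gave it on every array of the other line. With that flag in place of the stricter one, the rule named 17 probes for CEM RES and 20 for CEM PA, and only 1 and 3 of them were members here. The members are for this reason called by the rule and not as genes that are absent from a line.

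Markers of T cells were measured in both lines. All 10 T cell markers measured, among them CD3D, CD3E, CD7 and LCK, were well above background on all 13 arrays. Of the epithelial markers, EPCAM and CDH1 were on no array, and of the fibroblast markers COL1A1 and COL3A1 were on none. None of the 61 T lineage genes on a fixed list, matched by symbol, was a member in either direction, where 0.193 would be at the share of all gene names. A T cell receptor variable segment that is not on this list, ENST00000390458, was in the CEM PA set and is described below. The number of probes well above background ran from 20288 on CEM PA mock array 1 to 26048 on CEM RES FK866 array 3, and no spot was saturated. The lowest log2 signal that was still called well above background, here the floor of an array, ran from 2.01 on CEM RES FK866 array 3 to 4.29 on CEM PA mock array 1.

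**Figure D1:**
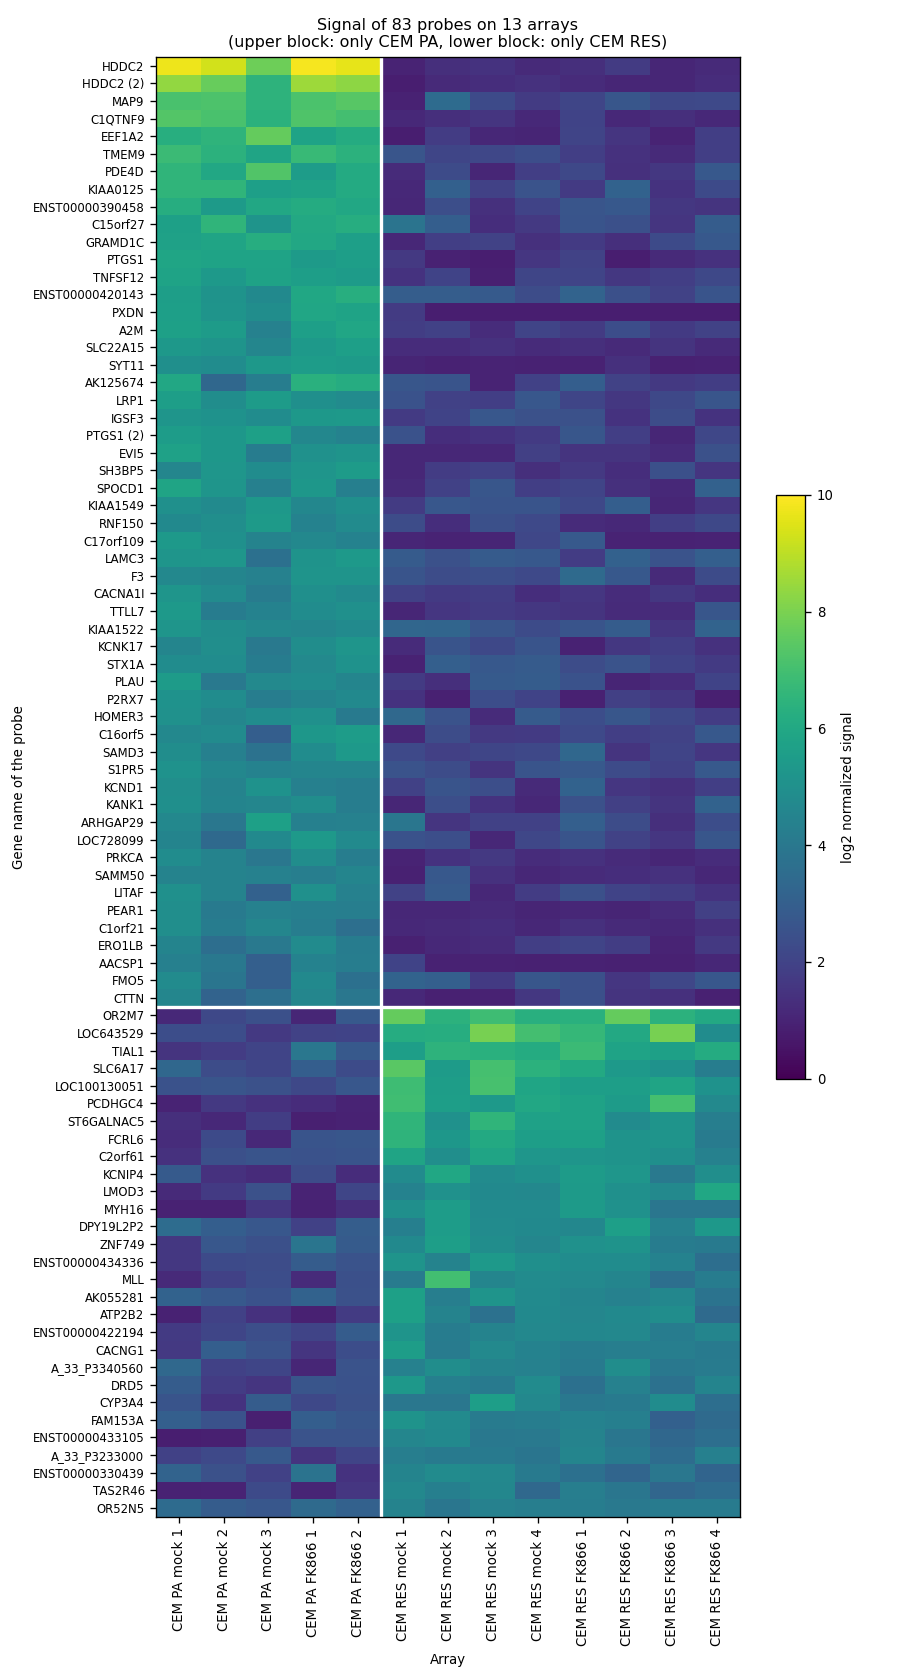
Log2 normalized signal (colour, 0 to 10) of 83 probes (rows, by gene name as in the array files) on the 13 arrays (columns). The upper block holds 54 of the 55 probes well above background only in CEM PA and the lower block the 29 only in CEM RES, each sorted by the least fold between the lines; a second probe of a gene is marked (2).

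Most members were dim. Mean log2 signals in the line that showed them ran from 3.99 to 9.27 in the CEM PA set, with a median of 4.94, and from 4.00 to 6.71 in the CEM RES set, with a median of 4.74. On the array of its own line where a probe came closest to that array's floor, the median probe lay 0.73 log2 units above it in the CEM PA set and 0.78 in the CEM RES set. Because the other line gives only an upper bound, differences are stated as a least fold, in which each array of the silent line enters at its floor or at its own signal, whichever is higher. The least fold compares log2 means over the arrays of each line, so single arrays can lie closer together. The least fold had a median of 3.51 in the CEM PA set, and 24 of 55 probes exceeded 4. It had a median of 2.89 in the CEM RES set, and 8 of 29 exceeded 4. The signals of the lines did not overlap for 54 of 55 and for 28 of 29 probes. Of the probes on all 13 arrays, 15.5% were higher on every CEM PA array and 17.6% on every CEM RES array. For the members the rule nearly fixes this, since it asks for the call on every array of 1 line and on none of the other. The exceptions among the members were FMO5, a flavin monooxygenase, and the probe for the transcript ENST00000330439 of metallothionein 1E, a metal-binding protein.

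HDDC2, a nucleotidase of the HD domain family, showed the widest separation of all members. Its probe across a splice junction, at chr6:125614053-125621739 of hg19, read 9.74, 9.31 and 7.79 on the mock arrays of CEM PA and 9.87 and 9.63 with FK866 (log2). On the 8 CEM RES arrays the same probe read at least 0.99 and at most 1.73, with a median of 1.26. The least fold between the lines was 73.5, and 47.1 on the mock arrays alone. A second member probe, at chr6:125598280-125598339, read between 6.48 and 8.52 in CEM PA and between 0.85 and 1.43 in CEM RES, a least fold of 27.8. The third HDDC2 probe, at chr6:125596726-125596785, was no member. It read 4.71 ± 0.53 (SD, n = 5) in CEM PA and 3.49 ± 0.35 (n = 8) in CEM RES, and was well above background on all 5 and on 5 of 8 arrays. The 3 probes thus do not give 1 picture of HDDC2 in CEM RES. Of 14 other probes within 1 Mb of HDDC2, 4 were on all 13 arrays, and their median difference, CEM RES minus CEM PA, was -0.04 on the log2 scale.

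Further members of the CEM PA set were clearly above the floor. MAP9, a microtubule-associated protein of the spindle, read between 6.45 and 7.42 in CEM PA and had a median of 2.18 in CEM RES, with a highest value of 3.49 on CEM RES mock array 2. C1QTNF9, a secreted protein related to complement C1q, read between 6.40 and 7.34 in CEM PA and between 1.14 and 2.01 in CEM RES. EEF1A2, the translation elongation factor of nerve and muscle, read 6.27, 6.51 and 7.62 on the mock arrays and 5.80 and 6.15 with FK866, against at most 2.03 in CEM RES. Each array of CEM PA lay far above each array of CEM RES for these member probes, with least folds of 15.9 for MAP9, 15.6 for C1QTNF9 and 10.6 for EEF1A2. TMEM9, a protein of endosomes and lysosomes, followed with 10.4-fold. PDE4D, a cAMP phosphodiesterase, read between 5.51 and 7.28 in CEM PA and had a least fold of 9.34.

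KIAA0125, a non-coding RNA gene within the immunoglobulin heavy chain locus that is now named FAM30A, read between 5.63 and 6.56 in CEM PA, with a least fold of 8.04. A probe for a variable segment of the T cell receptor alpha and delta locus, ENST00000390458 at chr14:22631519-22631578, read between 5.46 and 6.25 in CEM PA and between 1.10 and 2.74 in CEM RES, a least fold of 7.47. C15orf27 (now TMEM266), a membrane protein with a voltage sensor, had a least fold of 7.17 with a wide spread in CEM RES, from 1.30 to 3.83. GRAMD1C, a sterol transport protein, had a least fold of 6.89. TNFSF12, the cytokine TWEAK, had 5.83.

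PTGS1, which encodes cyclooxygenase 1, was the other gene that entered with 2 probes. The probe at chr9:125155052-125155111 read 5.86, 5.80 and 5.81 on the mock arrays of CEM PA and 5.45 and 5.59 with FK866, against at most 1.96 in CEM RES. The probe at chr9:125157536-125157595 read 5.54, 5.30 and 5.67 on the mock arrays and 4.64 and 4.44 with FK866, against at most 2.68. Both lay above CEM RES on every array, with least folds of 6.22 and 4.15, and both read lower on each FK866 array than on each mock array. With 3 mock and 2 FK866 arrays, these groups did not overlap for 34.8% of all probes tested below.

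Several of the remaining CEM PA members act outside the cell or at its surface. PXDN had a least fold of 5.35, A2M, a protease inhibitor of plasma, 5.12, LRP1, the receptor that clears it, 4.21, and LAMC3, a laminin chain, 3.32. F3, tissue factor, had 3.30, and PLAU, the urokinase plasminogen activator, 3.13. Signalling receptors were P2RX7, an ATP-gated channel, with 3.08 and S1PR5, a sphingosine 1-phosphate receptor, with 2.99. The grouping was made after the values were seen and says nothing of such genes at large.

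Further probes of the CEM PA set stood for ENST00000420143, SLC22A15, SYT11, AK125674, IGSF3, EVI5, SH3BP5, SPOCD1, KIAA1549, RNF150, C17orf109, CACNA1I, TTLL7, KIAA1522, KCNK17, STX1A, HOMER3, C16orf5, SAMD3, KCND1, KANK1, ARHGAP29, LOC728099, PRKCA, SAMM50, LITAF, PEAR1, C1orf21, ERO1LB, AACSP1, FMO5 and CTTN. The smallest least fold of the set was 1.90, for CTTN, which binds branched actin.

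In the CEM RES set OR2M7, an olfactory receptor, led with a least fold of 11.0. It read 7.65, 6.43, 6.88 and 6.29 on the mock arrays of CEM RES and 6.34, 7.63, 6.44 and 6.03 with FK866. On the CEM PA arrays it read 1.16, 2.17 and 2.45 for mock and 1.08 and 2.79 with FK866, so that the lowest CEM RES array lay 3.25 log2 units above the highest CEM PA array. LOC643529, a non-coding RNA now named LINC00865, read between 4.84 and 7.95 in CEM RES and between 1.66 and 2.37 in CEM PA, a least fold of 10.9. Of the 60 other probes within 1 Mb of OR2M7, 10 were on all 13 arrays, and their median difference, CEM RES minus CEM PA, was -0.33 on the log2 scale. The median of the genes measured around OR2M7 was thus not higher in CEM RES.

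TIAL1, an RNA-binding protein of stress granules, had a least fold of 7.31 for a probe at chr10:121341245-121341304 designed for 1 Ensembl transcript. SLC6A17, a neutral amino acid transporter of synaptic vesicles, had 6.61, and the cDNA locus LOC100130051 had 6.50. PCDHGC4, a gamma protocadherin, read between 4.70 and 7.04 in CEM RES and between 0.98 and 1.64 in CEM PA, a least fold of 6.45, while its other probe overlapped between the lines. ST6GALNAC5, a sialyltransferase that modifies gangliosides, had 4.96. FCRL6, an Fc receptor-like protein of cytotoxic lymphocytes, had 4.68.

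Below these, the CEM RES set held probes for C2orf61 (now STPG4), KCNIP4, LMOD3, an actin nucleator of muscle, the pseudogenes MYH16 and DPY19L2P2, ZNF749, MLL (now KMT2A), the histone H3 lysine 4 methyltransferase, ATP2B2, a calcium pump, and CACNG1, a calcium channel subunit. Their least folds ran from 3.86 for C2orf61 to 2.33 for CACNG1. MLL read 6.96 on CEM RES mock array 2 and between 3.63 and 4.84 on the other 7. The last ones were ENST00000434336, AK055281, ENST00000422194, DRD5, CYP3A4, FAM153A, ENST00000433105, ENST00000330439, TAS2R46, OR52N5 and 2 probes with no gene in the array files, A_33_P3340560 and A_33_P3233000. OR52N5 had the smallest least fold, 1.76, with CEM RES at 4.20 ± 0.19 (n = 8) and CEM PA at 3.13 ± 0.34 (n = 5).

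**Figure D2:**
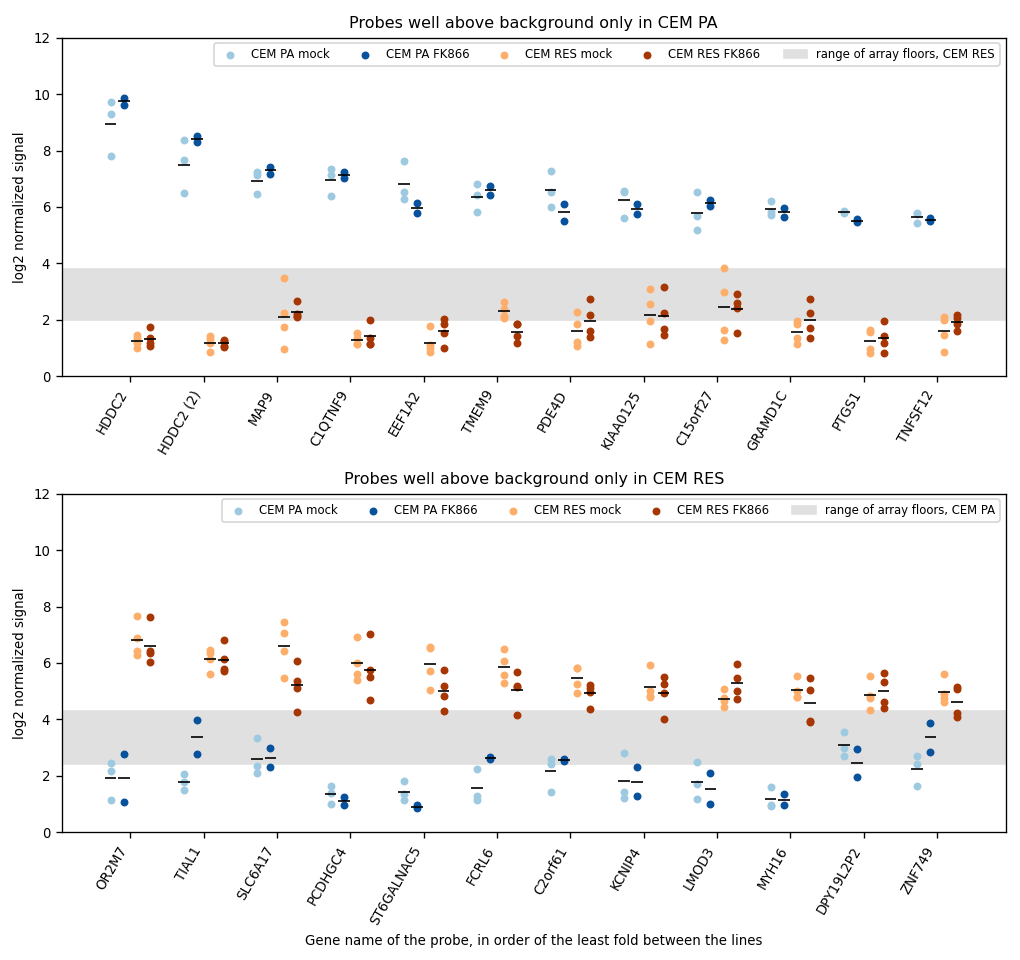
Log2 normalized signal of the 12 leading probes with a gene symbol in each set (x axis, by least fold, LOC names left out), with a point per array, a bar at the mean of each of the 4 groups, and in grey the range of floors of the line that did not show the probe. HDDC2 reads 9.27 on average in CEM PA and 1.29 in CEM RES, while ZNF749, at the right of the lower panel, reads 4.80 in CEM RES and 2.70 in CEM PA.

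The size of these differences depended on how background was treated. With normexp background correction and an offset of 50, which pulls dim signals together, the median least fold fell to 1.37 in the CEM PA set and 1.27 in the CEM RES set. HDDC2 (8.98-fold) and OR2M7 (2.33-fold) still led. When the 75th percentile of each array was set equal and no quantile normalization was done, the medians were 2.54 and 3.95. The CEM RES set thus had the larger median, while the highest fold remained that of HDDC2 (63.8), beside 13.9 for OR2M7.

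Just outside the limit of the rule lay longer lists of probes. Another 33 probes were on all 8 CEM RES arrays and on 1 of CEM PA, with a median least fold of 2.32. Among them was C1orf140 with 14.4, which is higher than any member of the CEM RES set. A further 25 were on 7 CEM RES arrays and none of CEM PA, with a median of 1.75 and a highest value of 3.74, beside a median of 2.89 for the set. On the other side, 46 probes were on all 5 CEM PA arrays and 1 of CEM RES, with a median least fold of 3.48 and the highest for ST8SIA1, a ganglioside sialyltransferase, at 12.8. The 31 probes on 4 CEM PA arrays and none of CEM RES had a median of 2.10 and a highest value of 3.89, beside a median of 3.51 for the set.

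Other probes of the same gene split the members into several kinds. In the CEM PA set 30 genes had 36 other probes on the array. Of these, 16 probes of 15 genes were well above background on all 13 arrays, so that the gene as a whole was measured in both lines. Among the 16, 9 were higher on every CEM PA array than on every CEM RES array, 1 was lower and 6 overlapped. Over all probes on 13 arrays, 15.5% were higher on every CEM PA array.

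The probes higher in CEM PA were those of KIAA0125, TMEM9, CTTN, HOMER3, IGSF3, C1orf21, PLAU and STX1A. KIAA0125 read 10.10 ± 0.29 (n = 5) in CEM PA and 6.77 ± 0.37 (n = 8) in CEM RES with its other probe. TMEM9 read 7.93 ± 0.29 and 4.98 ± 0.33. CTTN read 8.63 ± 0.37 and 5.64 ± 0.67, and PLAU 8.37 ± 0.43 and 6.38 ± 0.66. These genes were thus well above background in CEM RES through another probe, at a lower level. MAP9, TTLL7, a tubulin polyglutamylase, KCNK17, a potassium channel, PXDN and FMO5 also had a further probe that was lower on every CEM RES array, without being on all 13 arrays. By contrast, every other probe of C1QTNF9, PDE4D and TNFSF12 overlapped between the lines, and none was well above background throughout a line. Those of C1QTNF9 averaged 3.42 and 3.25 over the CEM PA arrays, against 1.86 and 2.36 for CEM RES. That of TNFSF12 averaged 2.50 against 2.10, and the brightest of PDE4D 3.07 against 1.85.

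In other genes the second probe did not follow the first. SAMM50, which builds beta-barrel proteins into the outer mitochondrial membrane, read 12.83 ± 0.24 (n = 5) in CEM PA and 13.13 ± 0.20 (n = 8) in CEM RES with the probe for its RefSeq transcript. The member probe of SAMM50, designed for a cDNA, lies downstream of that probe and read 4.43 and 1.41. P2RX7, LRP1, LAMC3, KANK1 and CACNA1I also had a probe on all 13 arrays whose values overlapped between the lines. C16orf5 (now CDIP1), an apoptosis regulator, was opposite, with 8.42 ± 0.09 in CEM PA and 8.85 ± 0.23 in CEM RES. ERO1LB (now ERO1B), an oxidase of the endoplasmic reticulum, read 2.52 ± 1.00 in CEM PA and 4.54 ± 1.00 in CEM RES with its second probe, without overlap and against the member probe, which read 4.24 and 1.46.

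In the CEM RES set 10 of 29 genes had 14 other probes, of which 6 in 3 genes were on all 13 arrays. Of the 6, 3 were higher on every CEM RES array, 1 each for ENST00000434336, TIAL1 and MLL. Among the rest, 1 was lower and 2 overlapped. Over all probes on 13 arrays, 17.6% were higher on every CEM RES array and 15.5% on every CEM PA array. ENST00000434336 averaged 7.59 in CEM RES and 6.89 in CEM PA with this probe. MLL had 4 of the 6. They read between 5.56 and 12.77 on average in CEM PA and between 6.24 and 12.99 in CEM RES, of which 2 overlapped between the lines. Without overlap, 1 was higher in CEM RES (7.61 against 5.56) and 1 was lower (6.24 against 7.13). The member probe of MLL, across a splice junction at chr11:118361998-118362491, read 4.70 and 1.83. TIAL1 read 12.19 ± 0.09 (n = 8) in CEM RES and 11.64 ± 0.21 (n = 5) in CEM PA with the probe for its RefSeq transcript. Both genes were therefore expressed at a high signal in both lines. LMOD3 had a second probe in the direction of the member, with 4.18 ± 0.58 in CEM RES and 1.70 ± 1.00 in CEM PA. The second probe of PCDHGC4 was on 8 CEM RES and 3 CEM PA arrays, and its values overlapped, with 4.51 ± 0.28 in CEM RES and 4.20 ± 0.08 in CEM PA. FCRL6 had a second probe on no array, and the second probe of OR52N5, which overlaps the member probe in position, read 2.25 ± 0.72 and 2.73 ± 0.46.

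The probes of genes that gave different answers are shown by the first 30 of their 60 bases, 5′ to 3′ as the array files give them, with positions and strand on hg19. They are shown because the member probe and the other probe of 1 gene sample different stretches of it. For HDDC2 the first 2 were members and the third was not, for SAMM50, CTTN, TIAL1 and MLL the first was a member and the second was on all 13 arrays.
HDDC2, chr6:125614053-125621739, minus strand: taccggatggcagttatggctatggtgatc
HDDC2, chr6:125598280-125598339, minus strand: agaccaatgtgaaatgattcttcaagcatc
HDDC2, chr6:125596726-125596785, minus strand: cagactgcttcagacttctaatcataggct
SAMM50, chr22:44390635-44390694, plus strand: ggtctggtggaacttcgcagcgctgctttg
SAMM50, chr22:44385073-44385132, plus strand: ctttggagaacttttccgaacacacttctt
CTTN, chr11:70281141-70281200, plus strand: atgagatctcatttgaccctgatgacatca
CTTN, chr11:70282582-70282641, plus strand: gggttttatatgcaacttattgtatctgaa
TIAL1, chr10:121341245-121341304, minus strand: tattttggtttgttttgagtagtggatgtt
TIAL1, chr10:121336676-121336982, minus strand: aagggctattcatttgtcagattttcaacc
MLL, chr11:118361998-118362491, plus strand: tccattccaaatgtgagaatctttcagatg
MLL, chr11:118348856-118348915, plus strand: gtactaattgcttagataagcccaagtttg

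**Figure D3:**
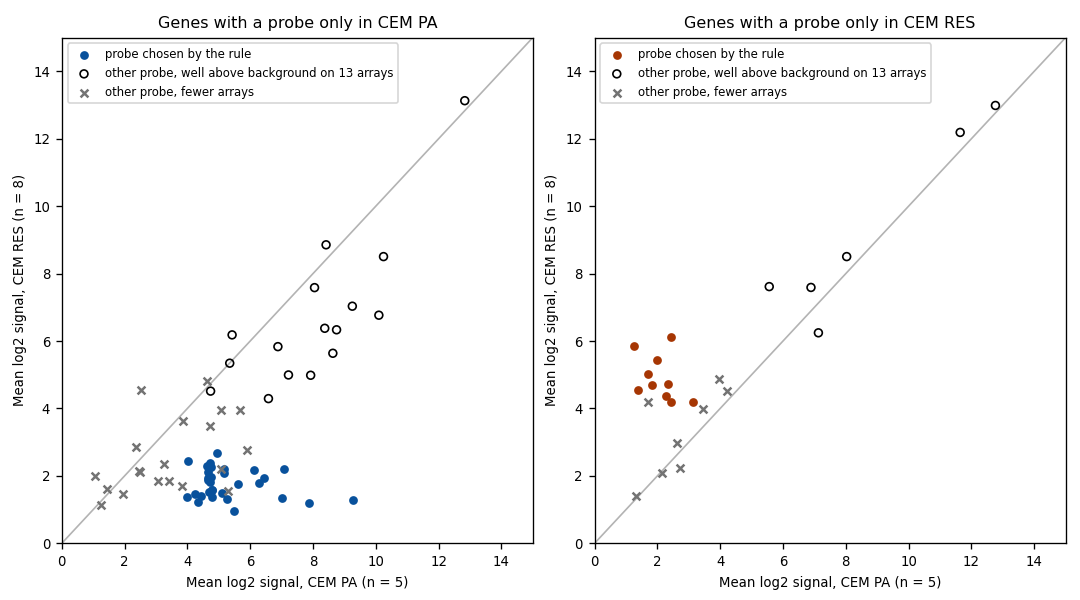
Mean log2 signal in CEM PA (x axis, n = 5) and CEM RES (y axis, n = 8) of the member probes (filled) and of the other probes (open circles: well above background on 13 arrays, crosses: on fewer) of the same genes; the line marks equal signal. In the left panel 9 of the 16 open circles stand for probes that were higher on every CEM PA array, and in the right panel TIAL1 reads 12.19 in CEM RES and 11.64 in CEM PA, while 1 of the 4 MLL probes lies well above the line, with 7.61 and 5.56.

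Next, the effect of 5 nM FK866 was tested within the line that showed each probe. The rule did not use the treatment, but it did use the calls on the mock and FK866 arrays tested here. limma was fitted over the 22751 probes that had the well-above-background call throughout 1 group or more. A probe was called past the double threshold used in the study, an absolute log2 fold change over 0.75 with an unadjusted p below 0.05, and Benjamini-Hochberg adjusted p-values were taken over all tested probes. All 84 members were tested.

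In CEM RES, 26 of the 29 members read lower with FK866 than with mock, with a median log2 fold change of -0.47, while the median over all probes was -0.02 and 54.4% of all probes read lower. The floor of the arrays moved the same way. Its mean was 3.39 on the mock arrays and 2.74 on the FK866 arrays of CEM RES, and the part of this shift in the members' values was not tested. A member had to be called on every mock array, where the mean floor was higher, as well as on every FK866 array. The direction of the members and the calls below are thus not independent of the rule. The double threshold was passed by 5 of 29 members (17.2%), all lower, beside 1.3% of all probes (0.602% lower and 0.694% higher). None passed an adjusted p of 0.05, nor did any of the 22751 probes in CEM RES (0.0%), and 6 members had an unadjusted p below 0.05 (5.15% of all probes).

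SLC6A17 had the largest difference, with 7.44, 5.47, 7.06 and 6.41 on the mock arrays and 6.08, 5.37, 5.10 and 4.26 with FK866. This gave a log2 fold change of -1.40 ± 0.46 (SE; unadjusted p = 0.0107, limma adjusted p = 0.938). The groups overlap, since mock array 2 read lower than FK866 array 1. ST6GALNAC5 read 6.56, 5.05, 6.53 and 5.72 on the mock arrays and 5.75, 4.81, 5.18 and 4.29 with FK866, a log2 fold change of -0.96. FCRL6 read 6.51, 5.28, 6.07 and 5.59 on the mock arrays and 5.68, 5.13, 5.18 and 4.15 with FK866, a log2 fold change of -0.83. In all 3 genes mock arrays 1 and 3 were the highest and FK866 array 4 the lowest. LOC100130051 had a log2 fold change of -0.82. The metallothionein 1E transcript ENST00000330439 had -0.98 and was the only member of the CEM RES set whose groups did not overlap, with 4.10 to 4.82 on the mock arrays and 3.23 to 3.97 with FK866, beside 2.9% of all probes.

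The same arrays were the extremes for much of the set. FK866 array 4 was the lowest of the 8 for 16 of the 29 probes and for 16.27% of all tested probes, and mock array 1 was the highest for 13 of 29 and for 23.79% of all. The count past the double threshold fell to 1 without mock array 1, mock array 3 or FK866 array 4, and to 3 without FK866 array 2. It was 0 with normexp background correction. Within slide 5 and within slide 6 each of the 5 called members was lower with FK866, SLC6A17 by -1.15 and -1.64, and with slide as a fixed block all 5 kept their call. LMOD3, with 0.55 ± 0.33 (unadjusted p = 0.126, limma), was the highest of the 3 members above 0.

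In CEM PA, 32 members read higher with FK866 and 23 lower, with a median log2 fold change of 0.18 beside -0.003 for all probes, of which 50.4% read lower. The double threshold was passed by 6 of 55 (10.9%), 5 higher and 1 lower, beside 6.69% of all probes (3.87% higher, 2.82% lower), and none passed an adjusted p of 0.05 (lowest 0.204, limma), beside 1.53% of all probes. An unadjusted p below 0.05 was reached by 10 members and by 14.4% of all probes. With 3 arrays against 2, the groups did not overlap for 14 of 55 members, beside 34.8% of all probes.

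The higher ones were led by AK125674, a cDNA from chromosome 2, with 5.98, 3.35 and 4.25 on the mock arrays and 6.33 and 6.20 with FK866, a log2 fold change of 1.73 ± 0.67 (SE; unadjusted p = 0.0235, limma adjusted p = 0.252). C16orf5 read 4.65, 4.82 and 2.97 on the mock arrays and 5.30 and 5.54 with FK866, a log2 fold change of 1.27 ± 0.50. The low mock array differed between them, array 2 for AK125674 and array 3 for C16orf5. ENST00000420143 had 0.94 ± 0.33. The second HDDC2 probe had 0.90 ± 0.40 and its groups overlapped, and the first probe, with 0.81 ± 0.43, missed the p threshold (unadjusted p = 0.0857, limma). PTGS1 was lower, with -0.96 ± 0.42 for the probe at chr9:125157536-125157595 (unadjusted p = 0.0405, limma adjusted p = 0.318) and -0.30 ± 0.31 for the other probe.

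CEM PA mock array 3 was the lowest of the 5 for 27 of the 55 probes and for 25.71% of all tested probes. Without it the count past the double threshold was 1 and the median log2 fold change -0.033. The count was 2 without FK866 array 1 and 0 without FK866 array 2. Within the first scan session, which held mock array 1 and FK866 array 1, the 5 higher members differed by 0.16 to 0.65. Within the second, with mock arrays 2 and 3 and FK866 array 2, they differed by 1.18 to 2.39. PTGS1 was lower by -0.89 and -1.04. With session as a block all 6 kept their call, while with normexp background correction 0 did. Slides 2, 3 and 4 held 1 CEM PA array each. With slide as a fixed block the difference in CEM PA therefore rests on mock array 1 and FK866 array 1 of slide 1.

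**Figure D4:**
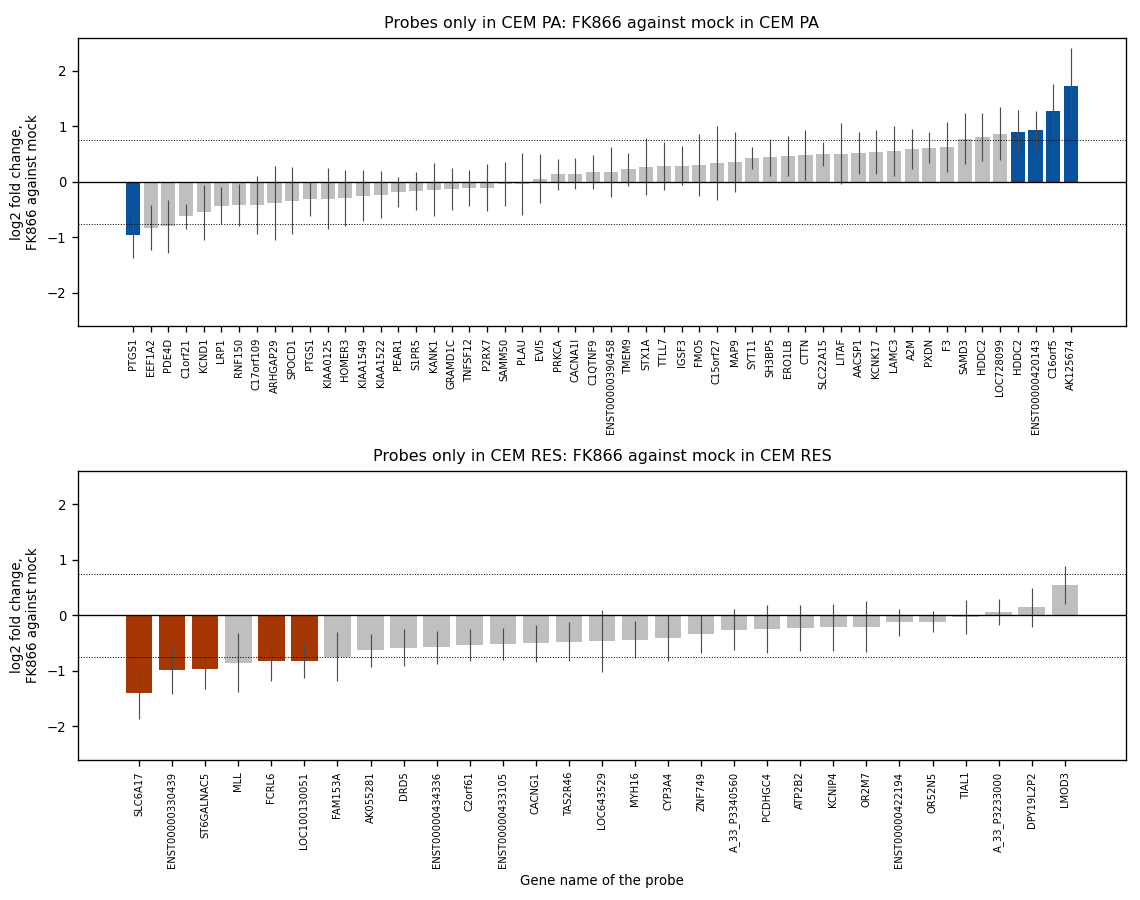
Log2 fold change of FK866 against mock (y axis, bars, with the standard error of the limma fit) of the members (x axis) in the line that showed them, 54 of the 55 of CEM PA above (3 mock, 2 FK866 arrays) and all 29 of CEM RES below (4 and 4). Coloured bars passed the double threshold of 0.75 (dotted lines) and an unadjusted p of 0.05, 5 of those drawn in CEM PA and 5 in CEM RES; 26 of 29 bars of the lower panel lie below 0.

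By function, the members were spread over many gene classes. Of all gene names, 0.112% were in the CEM RES set and 0.204% in the CEM PA set. Of 143 genes for potassium, sodium and calcium channels, 43 had a probe on all 13 arrays, 2 (KCNIP4 and CACNG1) were in the CEM RES set and 3 (CACNA1I, KCND1 and KCNK17) in the CEM PA set. These are 1.40% and 2.10% of the channel genes, above the shares of all gene names, but they rest on 2 and 3 genes and were not tested. Of 379 olfactory receptor genes, 43 had a probe on all 13 arrays, 133 had none on any, and OR2M7 and OR52N5 were in the CEM RES set (0.528%). Of 376 solute carriers, SLC6A17 was in the CEM RES set and SLC22A15, an organic ion transporter, in the CEM PA set (0.266% each). ZNF749 was the only member among 533 genes named ZNF (0.188%), PCDHGC4 the only one among 91 cadherins and protocadherins, and CYP3A4, a drug-metabolising cytochrome, the only one among 126 detoxification enzymes. A list with 1 or 2 members cannot be set apart from the share of all gene names here.

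The lists with no member say little, because 0.316% of all gene names were in either set and 51 genes at that share would hold 0.161 members. Of 51 genes of NAD metabolism, none was a member, and 38 had a probe on all 13 arrays, 6 on none and 7 on some. No member was found either among 43 genes of glycolysis and lactate (37 on all 13 arrays), 35 of amino acid transport (20), 49 ABC transporters (25), 43 HOX genes (8), 64 imprinted genes (31) and 79 cancer-testis antigens (27). There was no member either among 18 B lineage, 22 myeloid or 20 erythroid and megakaryocytic genes, 31 integrins, 21 chemokine receptors, 43 interleukin receptors, 51 HLA and interferon-induced genes or 151 genes whose symbols start with KRT. Over all 25940 gene names, 56.9% had a probe on all 13 arrays.

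By position, chromosome 1 held 15 of the 55 probes of the CEM PA set (27.27%) and 6 of the 29 of the CEM RES set (20.69%), where 10.43% of all probes lie. Within 1 Mb of each other lay SPOCD1 and KIAA1522, ARHGAP29 and F3, and SLC22A15 and IGSF3, all on chromosome 1, and ENST00000420143 and C1QTNF9 on chromosome 13. F3 and ARHGAP29 were 360615 bases apart. In the CEM RES set only MYH16 and CYP3A4 on chromosome 7 were that close, 459069 bases apart. The genes measured around the members moved in both directions. The median difference, CEM RES minus CEM PA, of other probes on all 13 arrays within 1 Mb had a median of 0.06 over the CEM PA set and -0.03 over the CEM RES set, beside 0.04 for all such probes. It ran from -0.76, around SAMD3 (4 probes), to 0.41 in the CEM PA set, and was below 0, the direction of the members, for 22 of 54. It was also low around RNF150, with -0.61 over 9 probes. In the CEM RES set it ran from -0.37 to 0.73, around A_33_P3340560 (5 probes), and was above 0 for 14 of 29. Around ST6GALNAC5 it was 0.48 over 15 probes.

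Probe composition was compared with that of probes on no array and of probes on all 13 arrays. The median G+C content was 40.0% for the probes of the CEM PA set and 41.7% for those of the CEM RES set, between 38.3% for probes on no array and 45.0% for probes on all 13.

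The sequence in front of the genes was read from RefSeq on GRCh38.p14, for 38 genes of the CEM PA set and 16 of the CEM RES set that could be matched by symbol. CpG dinucleotides were counted in the 250 bases before the annotated start, the sites at which DNA is methylated. The median count was 12.5 in the CEM PA set and 14.5 in the CEM RES set. It was 20 for genes with a probe on all 13 arrays, 9 for genes with a probe on no array and 11 for all promoters. At least 20 CpG were found in 15 of 38 genes (39.5%) and 7 of 16 (43.8%), beside 52.7%, 29.5% and 32.1% in the same order. The comparison groups were formed by probe, so a gene with several probes could fall into more than a single group. The members thus included CpG-rich and CpG-poor promoters in both sets.

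To show this range, 3 promoters of each kind follow, the 250 bases before the start, 5′ to 3′ in the direction of the gene, with CG in capitals. PRKCA (47 CpG), F3 (34) and KCNIP4 (38) are CpG-rich. PTGS1 and PLAU have 4 each, and CYP3A4 has 0 and holds the letters TATAAA, also in capitals, beginning 29 bases before the start. TATAAA was searched on the gene's strand in the last 60 of the 250 bases, where 3.09% of all promoters hold it. The listed positions are on GRCh38.p14.
PRKCA, chr17:66302363-66302612, plus strand: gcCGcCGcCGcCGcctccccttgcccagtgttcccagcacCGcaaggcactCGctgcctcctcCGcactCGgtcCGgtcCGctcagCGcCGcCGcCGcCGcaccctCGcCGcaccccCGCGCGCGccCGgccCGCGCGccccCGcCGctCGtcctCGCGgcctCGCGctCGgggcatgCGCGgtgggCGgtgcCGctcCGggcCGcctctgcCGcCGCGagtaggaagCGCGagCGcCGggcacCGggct
F3, chr1:94541760-94542009, minus strand: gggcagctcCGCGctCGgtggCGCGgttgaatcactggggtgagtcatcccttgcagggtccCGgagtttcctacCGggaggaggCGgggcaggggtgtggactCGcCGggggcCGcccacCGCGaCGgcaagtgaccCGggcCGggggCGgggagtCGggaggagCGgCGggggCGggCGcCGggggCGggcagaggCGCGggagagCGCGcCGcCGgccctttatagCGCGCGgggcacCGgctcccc
PTGS1, chr9:122370283-122370532, plus strand: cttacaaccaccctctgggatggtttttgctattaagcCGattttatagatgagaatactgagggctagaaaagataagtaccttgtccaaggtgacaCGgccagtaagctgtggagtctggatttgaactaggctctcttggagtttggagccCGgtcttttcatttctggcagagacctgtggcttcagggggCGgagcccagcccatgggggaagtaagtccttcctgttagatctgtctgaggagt
PLAU, chr10:73910360-73910609, plus strand: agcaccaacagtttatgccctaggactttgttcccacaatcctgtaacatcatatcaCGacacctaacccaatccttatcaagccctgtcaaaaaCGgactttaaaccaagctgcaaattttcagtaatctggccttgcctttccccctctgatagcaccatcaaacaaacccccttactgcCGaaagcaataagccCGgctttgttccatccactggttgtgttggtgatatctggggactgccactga
KCNIP4, chr4:21948773-21949022, minus strand: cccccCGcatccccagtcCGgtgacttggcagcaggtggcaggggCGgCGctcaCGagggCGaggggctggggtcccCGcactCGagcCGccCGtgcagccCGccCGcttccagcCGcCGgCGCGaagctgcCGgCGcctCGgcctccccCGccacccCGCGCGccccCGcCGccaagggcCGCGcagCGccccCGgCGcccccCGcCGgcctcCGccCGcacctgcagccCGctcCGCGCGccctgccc
CYP3A4, chr7:99784185-99784434, minus strand: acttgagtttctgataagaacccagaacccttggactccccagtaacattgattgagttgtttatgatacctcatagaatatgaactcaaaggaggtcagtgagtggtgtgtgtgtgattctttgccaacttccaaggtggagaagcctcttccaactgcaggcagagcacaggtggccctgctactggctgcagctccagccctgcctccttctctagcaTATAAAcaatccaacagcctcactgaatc

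**Figure D5:**
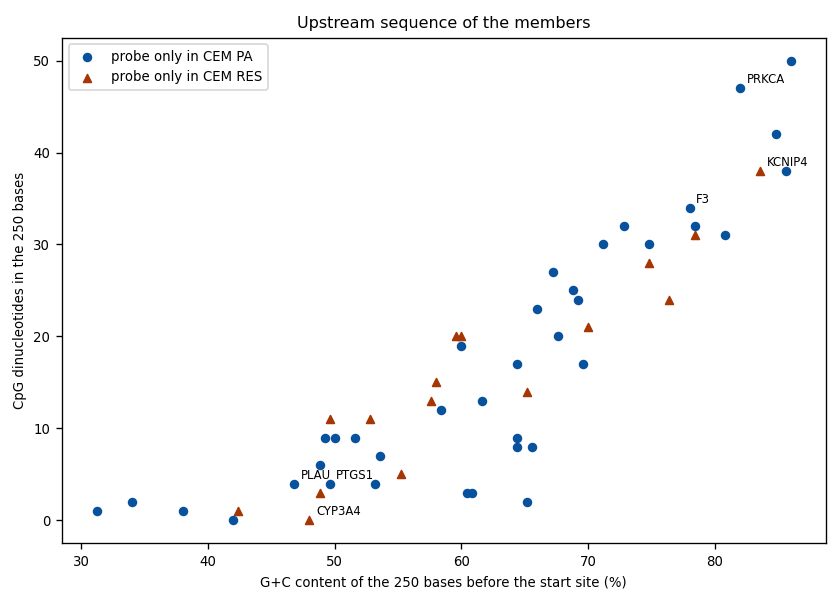
CpG dinucleotides (y axis) against G+C content in percent (x axis) in the 250 bases before the start of 38 genes of the CEM PA set (circles) and 16 of the CEM RES set (triangles). The sets run from 0 CpG for EVI5 and CYP3A4 to 50 for C15orf27 and 38 for KCNIP4, and the 6 named genes are those whose sequence is given.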

How the data were processed

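RNA of 4 groups was measured on 13 1-colour arrays (Agilent 4x44K v2). The authors deposited the scanner output, that is, the intensity of each spot after background correction and detrending by Agilent Feature Extraction (10.7.3.1 per the file headers, 10.7.7.1 in the submitters' processing notes), with flags per spot and probe positions on hg19. A deposited series table holds log2 values that the authors had quantile normalized. The rule was applied to the flag for signals well above background, over the 1 or 10 spots of each probe, with control spots left out. Intensities were log2-transformed and quantile normalized, outlier spots were set missing and spots of a probe averaged. limma 3.58.1 (R 4.3.3) was fitted with the 4 groups in 1 model and tested on simulated data. Replicate numbers correlated in their deviations from group means by 0.1994 to 0.4735 in the 4 pairs of CEM RES and by 0.3535 and 0.4603 in the 2 of CEM PA, so in CEM RES they were taken to pair the arrays. The p-values above come from the model without this pairing, and the fit with a replicate block is given at the end. Named were the 15 probes with a symbol and the largest least fold per direction, genes with more than 1 member probe, genes on a fixed list and members past the double threshold; others were named after their values were seen. The members, the lists and the tests were chosen with earlier results of these data known. RefSeq symbols matched for 72 of 84 probes. The number of arrays limits the precision, and p-values measure the spread between these arrays. Of the CEM PA set, 1 member is counted but not reported here by name, nor drawn.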

Additional observations from a re-analysis of the deposited data

Results flagged for a closer look

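The probe A_33_P3340560 of the CEM RES set, which has no gene in the array files, read 4.91 on CEM RES mock array 2 and between 4.40 and 4.47 on the other 3 mock arrays, a gap to the nearest array that is wide against the range of the group. The 2 groups of 4 arrays were looked at for each of the 29 probes of the CEM RES set, and chance alone sets about 1 group in 20 apart in this way.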

How the results depend on the processing

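The number of members depended on the strictness of the rule. For CEM RES and CEM PA, in that order, it was 17 and 20 with the flag for positive and significant signals, 54 and 86 when 1 array of the line that showed the probe could miss it, 62 and 101 when 1 array of the other line could show it, 64 and 135 on mock arrays alone, and 216 and 106 on FK866 arrays alone. Counting over every spot, any spot or gene names kept it within 1.5 times. Without each array in turn it ran from 29 to 44 (44 without CEM PA FK866 array 2) and from 55 to 75.

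For FK866 in CEM RES, 5 members past the double threshold became 2 with 75th percentile scaling or array quality weights and 0 with normexp, and 1 to 6 without single arrays. None passed an adjusted p of 0.05 under any alternative. In CEM PA, 6 became 0 with normexp or with slide as a fixed block (added after seeing the data, as was the session block), 3 with the arrays of the line alone or an intensity trend, and 0 to 9 without single arrays. An adjusted p below 0.05 was reached by 1 member, AK125674 (adjusted p = 0.02467), with array quality weights. The cause was not tested. In CEM PA the slide block rests on mock array 1 and FK866 array 1 of slide 1, since the other slides held 1 array each. The median log2 fold change of the CEM PA set was -0.082 with this block and ran from -0.0327 to 0.36 without single arrays. In CEM RES the median stayed below 0 throughout.

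With the replicate block, CEM PA had 3 members past the double threshold and a median of -0.033. With 2 pairs, its numbers were not taken to pair the arrays. In CEM RES the block changed no call.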
